A study of Mus musculus with 14 samples.

Results

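The eicosanoid synthesis enzymes were followed as a set of 10 genes in microglia sorted from the dorsal lumbar spinal cord. Membership was set by gene symbol: Pla2g4a, Ptgs1, Ptgs2, Hpgds, Tbxas1, Ptges3, Alox5, Alox5ap, Ltc4s and Lta4h. All 10 were among the 14329 genes of the deposited values. The list holds symbols alone, with no threshold on a measured value, but it was drawn up with earlier results of these data known. Of these, 9 reached 10 reads in 7 or more of the 14 libraries and entered the tests, which ran over 12645 genes. Ptgs2 did not pass and is described by its reads.

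Mice were 6 months old, male and female, on a C57BL/6 background. TASTPM mice are heterozygous for human transgenes, among them APP with the Swedish mutation, driven by the murine Thy-1 promoter, which is active in neurons. WT mice came from the same backcross and carry no human transgene. Arthritis was induced by serum transfer (ST) of K/BxN serum, injected on days 0 and 2, and Control ST mice received pooled serum of KRN/C57 mice. Tissue was taken on day 5, and each library was made from the RNA of 2000 CD45low CD11b+ CX3CR1+ cells, in a gate that the study also describes as negative for CCR2 and Ly6C. There were 3 WT Control ST, 4 WT K/BxN ST, 3 TASTPM Control ST and 4 TASTPM K/BxN ST libraries. The labels do not tie a library to an animal, while the study's methods describe its replicates as individual mice. Values are normalized counts, the reads of a gene divided by 1 factor per library, and libraries are numbered in the order of the deposited values.

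Eicosanoids are short-lived signalling lipids made from arachidonic acid, which phospholipase A2 enzymes cut from membrane phospholipids. Cyclooxygenases turn arachidonic acid into prostaglandin H2, the shared precursor of prostaglandins and thromboxane, and 5-lipoxygenase turns it into leukotriene A4, the shared precursor of leukotrienes. Macrophages, microglia among them, hold both branches, and the products act on nearby cells, in the dorsal horn on neurons of the pain pathway too.

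The sorted cells carried microglial transcripts in each library, with P2ry12 between 34656 and 166138 normalized counts and Tmem119 between 42292 and 162963. Library depth ran from 14223015 to 20239175 reads on genes. In 4 libraries, namely libraries 1 and 2 of WT K/BxN ST and of TASTPM K/BxN ST, the monocyte marker Ly6c2 had 12898 to 29133 normalized counts, against 1.87 to 17.8 in the 10 others. All 10 classical monocyte markers of the list had reads in these 4, as they did in TASTPM Control ST library 3. In the 4, 19 monocyte and neutrophil markers summed to 512761 to 882875 normalized counts, against 9980 to 23370 in the 10 others. The neutrophil gene S100a8 was high in 3 of the 4 libraries (39499 to 53594) and had 143 normalized counts in library 2 of WT K/BxN ST. These 4 libraries also had the lower microglial marker sums (281285 to 661683, against at least 815494). All 4 had the male-specific Ddx3y at 633 to 917 normalized counts, with Xist at 12.5 or less, and 7 of the 14 libraries had Ddx3y over 100 with Xist under 100. Summed markers of border-associated macrophages (11607 to 35646 normalized counts, against 4.78 to 1993) and dendritic cells (768 to 7673, against at most 224) were higher in the same 4. Within the first list Mrc1 overlapped, with 294 to 942 in the 4 and 0 to 599 in the 10 others. The immediate early gene Fos was also higher in the 4 (354 to 1697, against at most 161), while the summed immediate early and dissociation list overlapped. For the 9 tested members the averaged serum comparison is given with and without these 4 libraries. Without the 4, WT K/BxN ST keeps libraries 3 and 4, with Xist at 5816 and 3247 and Ddx3y at 0. WT Control ST libraries 1 and 2 had Ddx3y at 653 and 1027 with Xist at no more than 45.3, and library 3 had both. Sex therefore differs along with serum in the WT values without the 4, and in part in the averages. In bulk RNA, fewer cells of a type and less RNA per cell cannot be told apart.

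The 250 bases before the RefSeq start of a gene were read from RefSeq (a table of build GRCm38.p6) for 9 members, without Alox5ap, and each window was found once in GRCm39. The RefSeq start is not always the annotated start of the whole gene: the windows of Ptgs2, Hpgds and Tbxas1 and the farther window of Pla2g4a, which has more than 1, lay wholly inside the annotated gene. Stretches of 3 members are printed, each outside annotated exons of its gene, for the member with the highest level (Ptgs1), the member with the smallest p for serum averaged over genotypes (Alox5) and the member with the widest spread relative to its mean, Ptgs2 aside (Lta4h), a choice made with their values known. Capitals mark GAGGAA or its reverse complement TTCCTC, a core of sites for the myeloid factor PU.1.
Ptgs1, chr2:36120188-36120437, plus strand: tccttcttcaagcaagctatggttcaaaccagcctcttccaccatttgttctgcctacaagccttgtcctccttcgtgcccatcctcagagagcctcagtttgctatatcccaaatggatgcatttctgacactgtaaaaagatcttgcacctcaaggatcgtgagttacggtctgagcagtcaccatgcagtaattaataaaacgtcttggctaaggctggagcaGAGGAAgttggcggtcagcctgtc
Alox5, chr6:116438140-116438389, minus strand: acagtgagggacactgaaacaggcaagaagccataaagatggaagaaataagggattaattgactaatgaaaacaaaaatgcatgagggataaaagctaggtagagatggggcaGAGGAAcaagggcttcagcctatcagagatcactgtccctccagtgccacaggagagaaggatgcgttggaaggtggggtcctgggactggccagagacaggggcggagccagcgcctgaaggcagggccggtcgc
Lta4h, chr10:93289008-93289209, plus strand: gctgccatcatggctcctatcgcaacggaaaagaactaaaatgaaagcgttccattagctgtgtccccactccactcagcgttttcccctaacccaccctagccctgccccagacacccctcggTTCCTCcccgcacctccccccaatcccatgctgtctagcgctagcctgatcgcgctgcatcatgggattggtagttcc
GAGGAA on either strand was in the 250-base window of 6 of 9 members and in 23.3% of the 32851 windows of that length in the RefSeq table. It lay 24 bases before the end of the printed stretch in Ptgs1, 136 in Alox5 and 78 in Lta4h, and each stretch ends at the base before the annotated start. The members with it were the 3 printed and Ptgs2, Hpgds and Tbxas1, whose windows lay inside the gene. The letters TATAAA were in windows of 2 of 9 members, Tbxas1 and the farther one of Pla2g4a, both inside the gene, and in 12.4% of all, and a loose NF-kB pattern, GGG and CC with any 5 bases between them, was in 4 of 9 and in 45.8%. A match of letters is no evidence of binding, and no binding was measured here.

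Ptgs1, the gene of cyclooxygenase 1, was the most abundant member. It ranked 65 of 14329 genes by its mean normalized count, and Tbxas1 (323), Hpgds (537) and Alox5ap (819) followed within the first 1000. Ptges3 ranked 1600, Pla2g4a 1778, Lta4h 1841, Alox5 2043, Ltc4s 2583 and Ptgs2 13760. Genes can be compared by level only per length, here as RPKM, the reads per kilobase of the canonical transcript scaled to the reads on genes of each library. On that scale Ptgs1 had a mean of 525 ± 149 (SD, n = 14 libraries) and was above Tbxas1, at 203 ± 50.03, in 14 of 14 libraries. Tbxas1 was above Ltc4s (102 ± 31.3) in 14 of 14, and Ltc4s was above Hpgds (68.1 ± 18.8) in 14 of 14. The order of the next members was not fixed: Hpgds exceeded Alox5ap (66.7 ± 19.2) in 9 of 14 libraries, Lta4h (45.3 ± 33.1) exceeded Pla2g4a (33.7 ± 9.55) in 7 of 14, and Pla2g4a exceeded Alox5 (30.04 ± 7.84) in 8 of 14. Ptges3 lay between them at 53.0 ± 11.1. With the length of all annotated exons in place of the canonical transcript, Ptgs1 stayed first and Ptgs2 last, Pla2g4a stayed in place 8, and Tbxas1 moved from place 2 to place 6.

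**Figure D1:**
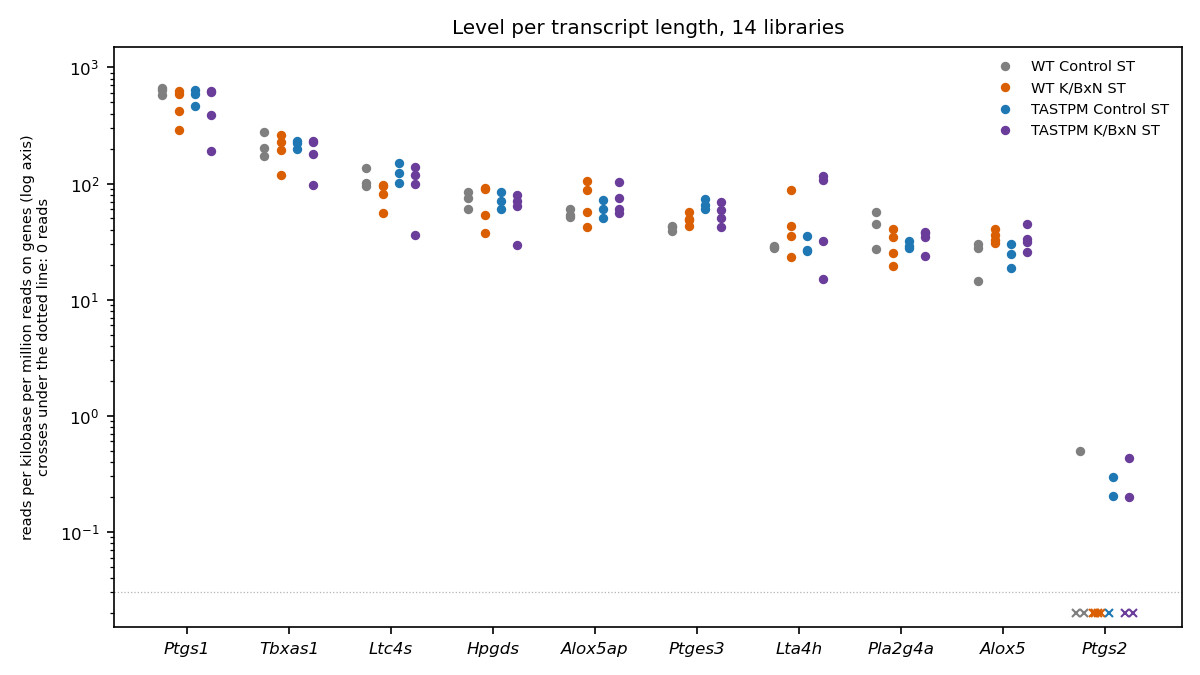
Level of each gene in RPKM of the canonical transcript, on a log axis, with 1 point per library, coloured by group, and crosses for libraries with 0 reads. Ptgs1 is at 190 to 669 and Ptgs2 at no more than 0.4996.

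The first step of the pathway is represented by Pla2g4a, which encodes the cytosolic phospholipase A2 that releases arachidonic acid. The gene lies on chromosome 1 of GRCm39, 149705369 to 149837053, 138140 bases from Ptgs2. Its normalized counts were 1425, 2158 and 2784 in WT Control ST, 948, 1186, 1972 and 1636 across WT K/BxN ST, 1381, 1542 and 1357 across TASTPM Control ST, and 1123, 1644, 1851 and 1760 in TASTPM K/BxN ST. WT Control ST held the highest value and the widest spread, and the groups overlapped within each genotype. In WT the log2 fold change of K/BxN ST over Control ST was −0.57 (standard error, SE, 0.28, limma adjusted p = 0.707; exact permutation, two-sided p = 0.229), and in TASTPM it was 0.14 (SE 0.28, limma adjusted p = 0.970). The difference between genotypes, 0.70 on the log2 scale (SE 0.40), had a limma adjusted p of 0.999. With sex-linked expression as a covariate this difference was 1.09 (unadjusted p = 0.0137, limma adjusted p = 0.999). Without WT Control ST library 3, the highest, the WT value was −0.35, and without library 1, the lowest, it was −0.83 (unadjusted p = 0.0149, limma adjusted p = 0.710). With library quality weights it was −0.88 (unadjusted p = 0.00373, limma adjusted p = 0.221), and without the 4 libraries high in Ly6c2 it was −0.19, against 0.34 in TASTPM. The average over both genotypes was −0.22 (SE 0.20, limma adjusted p = 0.727), and 0.08 without the 4.

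The cyclooxygenase step divided sharply between its 2 genes. Ptgs1 (chromosome 2, 36120438 to 36142287) had 34823, 28221 and 31420 normalized counts in WT Control ST, 14014, 20212, 28839 and 30081 across WT K/BxN ST, 31806, 22483 and 27715 across TASTPM Control ST, and 8961, 18696, 30564 and 29449 in TASTPM K/BxN ST. The 4 libraries high in Ly6c2 were the lowest of the 14, and the other K/BxN ST libraries lay among the controls. Averaged over WT and TASTPM, the log2 fold change was −0.48 (SE 0.27, limma adjusted p = 0.579; exact permutation within genotype, two-sided p = 0.112). Without those 4 libraries it was 0.03 (SE 0.12, limma adjusted p = 0.993).

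Ptgs2, the inducible cyclooxygenase (chromosome 1, 149975194 to 149983978), had 0 reads in 9 of 14 libraries. The other 5 had 48 reads in WT Control ST library 2, 16 and 21 in TASTPM Control ST libraries 1 and 2, and 15 and 36 in TASTPM K/BxN ST libraries 1 and 2. None of the 4 WT K/BxN ST libraries had a read on Ptgs2. As a share of the reads on both genes, Ptgs2 was at most 0.183% (95% Wilson interval 0.132% to 0.253%), in TASTPM K/BxN ST library 2. In the 9 libraries without reads, the upper end of the same interval was 0.01034% to 0.02475%. These bounds hold for counting error alone, since amplified reads are not independent molecules. No difference in Ptgs2 between groups was detectable at this depth, with exact permutation p of 0.42 or more in each of 5 comparisons.

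Of the enzymes that act on prostaglandin H2, Hpgds encodes hematopoietic prostaglandin D synthase, Tbxas1 thromboxane A synthase and Ptges3 a prostaglandin E synthase that is also the co-chaperone p23. Hpgds (chromosome 6, 65094001 to 65121983) had 4199, 5517 and 4976 normalized counts in WT Control ST, 2450, 3439, 6005 and 5765 across WT K/BxN ST, 5689, 3845 and 4488 across TASTPM Control ST, and 1853, 4475, 5168 and 4102 in TASTPM K/BxN ST. In WT, the 2 libraries high in Ly6c2 were below every control and the other 2 above every control. Its averaged log2 fold change of −0.29 (SE 0.25, limma adjusted p = 0.709) became 0.14 without the 4 libraries. Hpgds shares 431 exonic bases with the pseudogene Gm17147 on the opposite strand, and because the library kit is not known to keep strand, reads of the 2 cannot be told apart. The same holds for Ptgs1 with Gm43621, Ptgs2 with Ptgs2os, Tbxas1 with Gm42962, Ltc4s with Gm26542, Alox5 with Gm67658, Alox5ap with Gm19719 and Ptges3 with Gm47438, which share between 39 and 476 exonic bases.

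Tbxas1 (chromosome 6, 38852203 to 39061523) had 6340, 6869 and 9743 normalized counts in WT Control ST, 4014, 6479, 7746 and 8714 across WT K/BxN ST, 7794, 7818 and 6558 across TASTPM Control ST, and 3206, 5995, 7995 and 7646 in TASTPM K/BxN ST. Library 1 of each K/BxN ST group was the lowest of its genotype, library 2 of TASTPM K/BxN ST was also below its controls, and both groups of each genotype overlapped. The averaged log2 fold change was −0.27 (SE 0.22, limma adjusted p = 0.692), and 0.11 without the 4 libraries.

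Ptges3 (chromosome 10, 127894816 to 127913141) had its higher values in TASTPM among the control groups. It had 1418, 1463 and 1467 normalized counts in WT Control ST against 2107, 2188 and 2433 across TASTPM Control ST, and 1940, 1621, 1673 and 1426 across WT K/BxN ST against 2274, 1966, 1713 and 1411 in TASTPM K/BxN ST. The Control ST groups did not overlap, as was so in that direction for 4.97% of the tested genes, and the K/BxN ST groups overlapped. For TASTPM over WT in Control ST, the log2 fold change was 0.63 (SE 0.20, unadjusted p = 0.00756, limma adjusted p = 0.742), so that Ptges3 was not called, and the exact permutation p of 0.1 is the smallest that 3 libraries against 3 allow. Under K/BxN ST the same contrast was 0.13 (SE 0.18, limma adjusted p = 1.00), and the interaction was −0.50 (SE 0.27, unadjusted p = 0.0847, limma adjusted p = 0.999). Ptges3 shares a stretch of 484 bases at 99.2% identity with Ptges3-ps, a transcribed pseudogene in the same data, and reads may be split between them. All 6 Control ST libraries were low in Ly6c2, at 1.87 to 17.8 normalized counts. Sex was not balanced between them. TASTPM Control ST libraries 1 and 2 had Xist at 4321 and 5048 with Ddx3y at no more than 3.33, WT Control ST libraries 1 and 2 had Ddx3y at 653 and 1027 with Xist at no more than 45.3, and library 3 of each had both. With sex-linked expression as a covariate the difference in Ptges3 was 0.75 (SE 0.20, unadjusted p = 0.00256, limma adjusted p = 0.542).

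For serum, the log2 fold change of Ptges3 was 0.19 in WT (SE 0.19, limma adjusted p = 0.813), where 3 of 4 K/BxN ST libraries were above every control, and −0.30 in TASTPM (SE 0.19, limma adjusted p = 0.964), where 3 of 4 were below every control. Their average was −0.06 (SE 0.13, limma adjusted p = 0.904). Without the 4 libraries high in Ly6c2 the values were 0.09 in WT, −0.53 in TASTPM (unadjusted p = 0.0234, limma adjusted p = 0.996) and −0.22 averaged, and the exact permutation p of 0.1 in TASTPM is the smallest that 2 libraries against 3 allow.

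The leukotriene branch begins with Alox5, 5-lipoxygenase, which needs the membrane protein encoded by Alox5ap to receive arachidonic acid. Alox5 (chromosome 6, 116387032 to 116438139) had 1424, 697 and 1477 normalized counts in WT Control ST, 1708, 1437, 1939 and 1529 across WT K/BxN ST, 1483, 878 and 1156 across TASTPM Control ST, and 1199, 1568, 2140 and 1462 in TASTPM K/BxN ST. Of the 8 K/BxN ST libraries, 5 were above every control of their own genotype and none was below all of them. The averaged log2 fold change was 0.49 (SE 0.20, unadjusted p = 0.0303), and Alox5 was the 1 member of 9 with an unadjusted p below 0.05, a level reached by 9.25% of the tested genes in either direction and by 5.79% as higher. After adjustment over all tested genes it was not called (limma adjusted p = 0.536). The two-sided exact permutation test within genotype gave p = 0.0204 over 1225 assignments, the smallest of 50 such tests on the 10 members. In WT alone the log2 fold change was 0.53 (SE 0.29, limma adjusted p = 0.718), in TASTPM alone 0.44 (SE 0.29, limma adjusted p = 0.964). The WT value was 0.18 without WT Control ST library 2 and 0.72 without library 3, and the TASTPM value was 0.25 without TASTPM Control ST library 2 and 0.63 without library 1.

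Of the 9 members, Alox5, Ltc4s and Ptges3 kept the sign of their averaged log2 fold change without the libraries high in Ly6c2. Those 4 had 1199 to 1708 normalized counts of Alox5, inside the range of the 10 others. Without them the log2 fold change was 0.61 (SE 0.26, unadjusted p = 0.0347, limma adjusted p = 0.966), with an exact permutation p of 0.05. The value moved by over 1.5 times with 1 control: without WT Control ST library 2, at 697 normalized counts, the averaged value was 0.31 (unadjusted p = 0.106 by limma), and the unadjusted p stayed below 0.05 in 10 of 14 fits that left out 1 library each.

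Alox5ap (chromosome 5, 149196003 to 149227762) had 2627, 2549 and 2923 normalized counts in WT Control ST, 4927, 4039, 2713 and 1963 across WT K/BxN ST, 2938, 3366 and 2300 across TASTPM Control ST, and 4710, 3451, 2859 and 2577 in TASTPM K/BxN ST. The 4 libraries high in Ly6c2 were above all 10 others, and the remaining K/BxN ST libraries were not. The averaged log2 fold change of 0.24 (SE 0.21, limma adjusted p = 0.708) became −0.14 without the 4.

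Ltc4s encodes leukotriene C4 synthase, a relative of the Alox5ap protein that joins leukotriene A4 to glutathione. The gene (chromosome 11, 50127288 to 50129443) had 1641, 1141 and 1075 normalized counts in WT Control ST, 627, 895, 1069 and 1063 across WT K/BxN ST, 1169, 1665 and 1334 across TASTPM Control ST, and 394, 1080, 1559 and 1306 in TASTPM K/BxN ST. In WT every K/BxN ST library was below every Control ST library, as was so for 3.71% of the tested genes, although libraries 3 and 4, at 1069 and 1063, lay just under the lowest control at 1075. The log2 fold change in WT was −0.50 (SE 0.39, limma adjusted p = 0.785; exact permutation, two-sided p = 0.114), and averaged over both genotypes it was −0.50 (SE 0.27, limma adjusted p = 0.568). With 1 library left out, the WT value ranged from −0.61 to −0.31. Without the 4 libraries high in Ly6c2 the WT value was −0.24, in a contrast where sex also differs, and the averaged value −0.09.

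Lta4h encodes leukotriene A4 hydrolase, which makes the neutrophil attractant leukotriene B4. The gene (chromosome 10, 93289210 to 93320749) had 1075, 976 and 1009 normalized counts in WT Control ST, 3047, 1468, 811 and 1200 across WT K/BxN ST, 1273, 898 and 896 across TASTPM Control ST, and 3653, 3987, 522 and 1079 in TASTPM K/BxN ST. The 4 libraries high in Ly6c2 held 1468 to 3987 normalized counts and the 10 others 522 to 1273, with no overlap. The averaged log2 fold change of 0.63 (SE 0.42, limma adjusted p = 0.628) became −0.24 (SE 0.24, limma adjusted p = 0.967) without the 4. On the recovered reads, DESeq2 gave 0.93 for the same contrast with an unadjusted p of 0.0155 and an adjusted p of 0.271, so that Lta4h was not called there either.

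**Figure D2:**
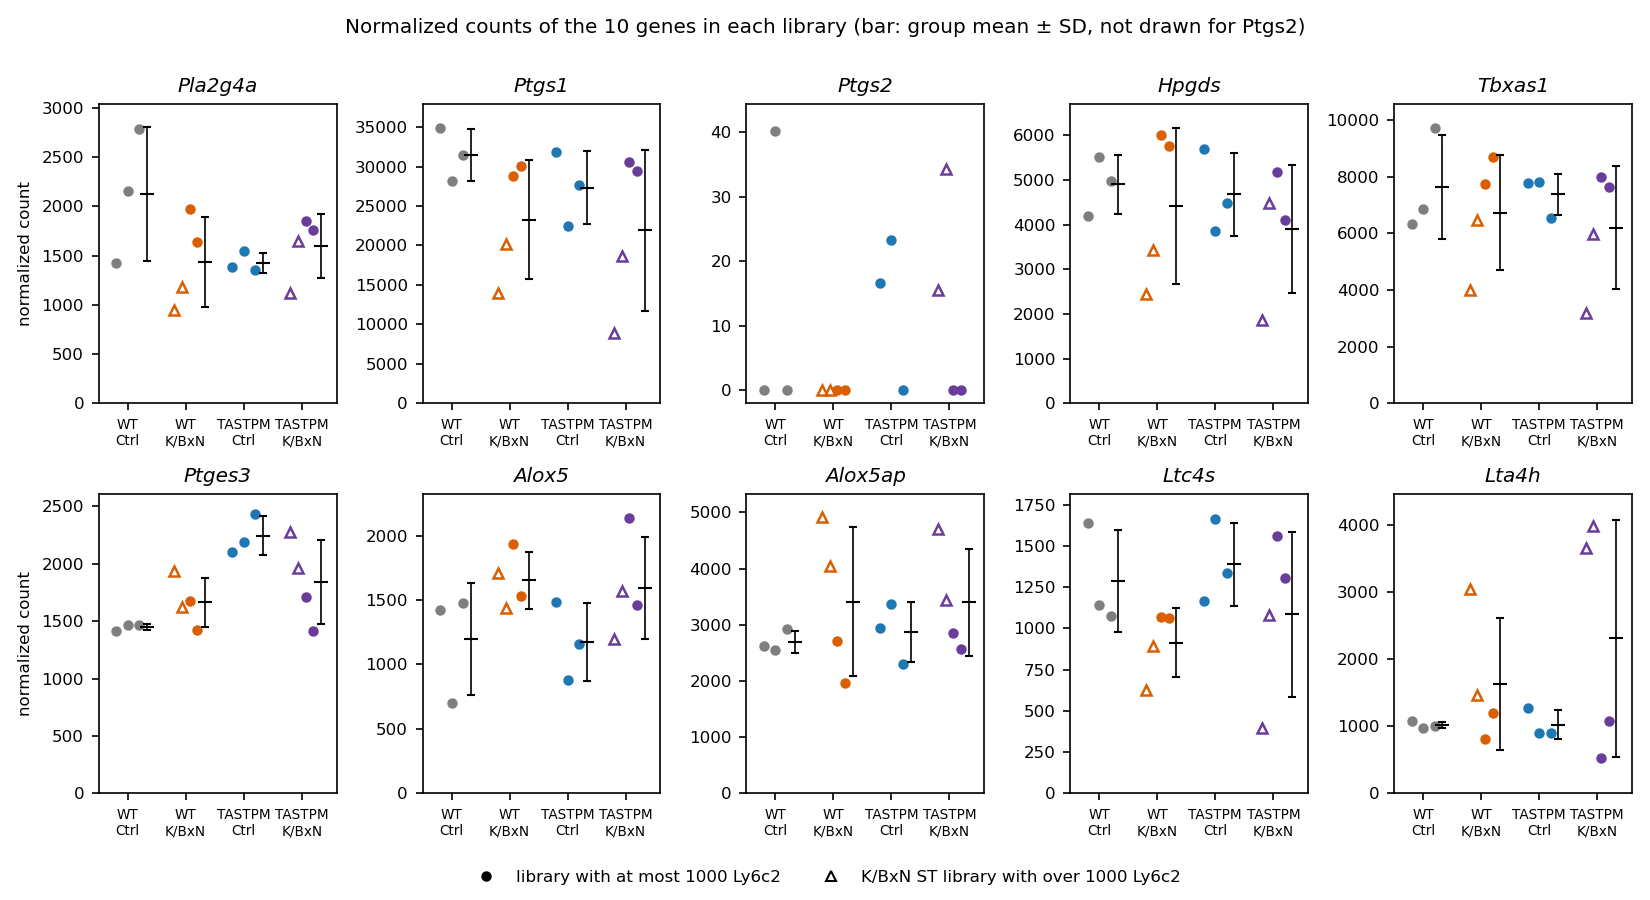
Normalized counts of the 10 genes in each of 14 libraries by group, with the group mean ± SD except for Ptgs2; open triangles are the 4 K/BxN ST libraries with over 1000 normalized counts of Ly6c2. Triangles are lowest for Ptgs1 and highest for Lta4h and Alox5ap, and for Alox5 they lie among the other points.

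Taking all 9 tested members together, 0 were called by limma (adjusted p below 0.05 and absolute log2 fold change above 1) between K/BxN ST and Control ST in WT, in TASTPM or averaged. The same rule called 0.00791% of all tested genes in WT and 0% in the other 2 comparisons. Averaged over genotypes, 3 members had a positive and 6 a negative log2 fold change, with a median of −0.22 against 0.03 over all tested genes. Scaled to 10 microglial markers, a choice that moved the median of all tested genes to 0.61, Ptgs1, Hpgds, Tbxas1, Ltc4s, Ptges3 and Pla2g4a had positive values too, all below that median, while Alox5 (1.07, limma adjusted p = 0.261), Alox5ap (0.82) and Lta4h (1.21) were above it. Between TASTPM and WT, 0 of 9 members were called in Control ST and 0 of 9 in K/BxN ST, against 0% of all tested genes in each. At an unadjusted p below 0.05, Ptges3 was the only member in Control ST (5.57% of all genes, 3.41% as higher) and none was in K/BxN ST (1.91%). In Control ST, Pla2g4a was at −0.52 (SE 0.30, limma adjusted p = 0.901). It reached that level under some alternatives, among them sex-linked expression as a covariate (−0.77, limma unadjusted p = 0.0176, adjusted p = 0.707). For the interaction of genotype and serum each of the 9 had a limma adjusted p of 0.999, and 0 of 9 passed an unadjusted p of 0.05 (3.04% of all genes). Under the alternatives, Ptges3 did so in 3 and Pla2g4a in 6, among them sex-linked expression or the monocyte and neutrophil marker level as a covariate for both, library quality weights for Pla2g4a and single libraries left out, and the lowest limma adjusted p among these was 0.944. With edgeR and with DESeq2 on the recovered reads 0 of 9 members were called in any comparison.

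**Figure D3:**
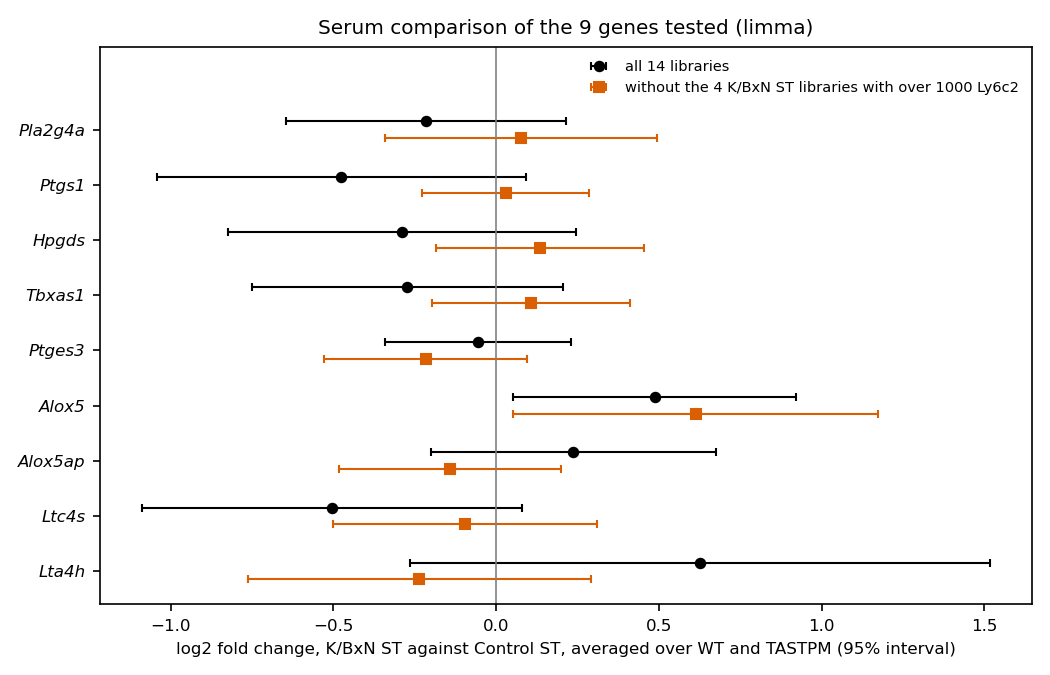
Log2 fold change of K/BxN ST over Control ST, averaged over WT and TASTPM, for the 9 tested genes with 95% intervals from limma, with all 14 libraries (circles) and without the 4 libraries high in Ly6c2 (squares). Alox5 is at 0.49 and 0.61, while Lta4h goes from 0.63 to −0.24 and Ptgs1 from −0.48 to 0.03.

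The members thus varied between libraries in 3 ways, described here without a test because the 4 libraries were set apart by their own expression. Ptgs1 was lower in the 4 libraries high in Ly6c2 than in all 10 others, which held for 2.51% of the tested genes. Lta4h and Alox5ap were higher in the 4 than in all 10 others, which held for 7.63%. The 6 other tested members overlapped between the 2 sets, with medians of 2944 against 5072 normalized counts for Hpgds, 5005 against 7770 for Tbxas1, 761 against 1238 for Ltc4s and 1154 against 1698 for Pla2g4a. Alox5, with medians of 1502 and 1469, and Ptges3, with 1953 and 1570, differed less. The part of RNA from monocytes, neutrophils, border-associated macrophages or dendritic cells in these values was not tested.

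**Figure D4:**
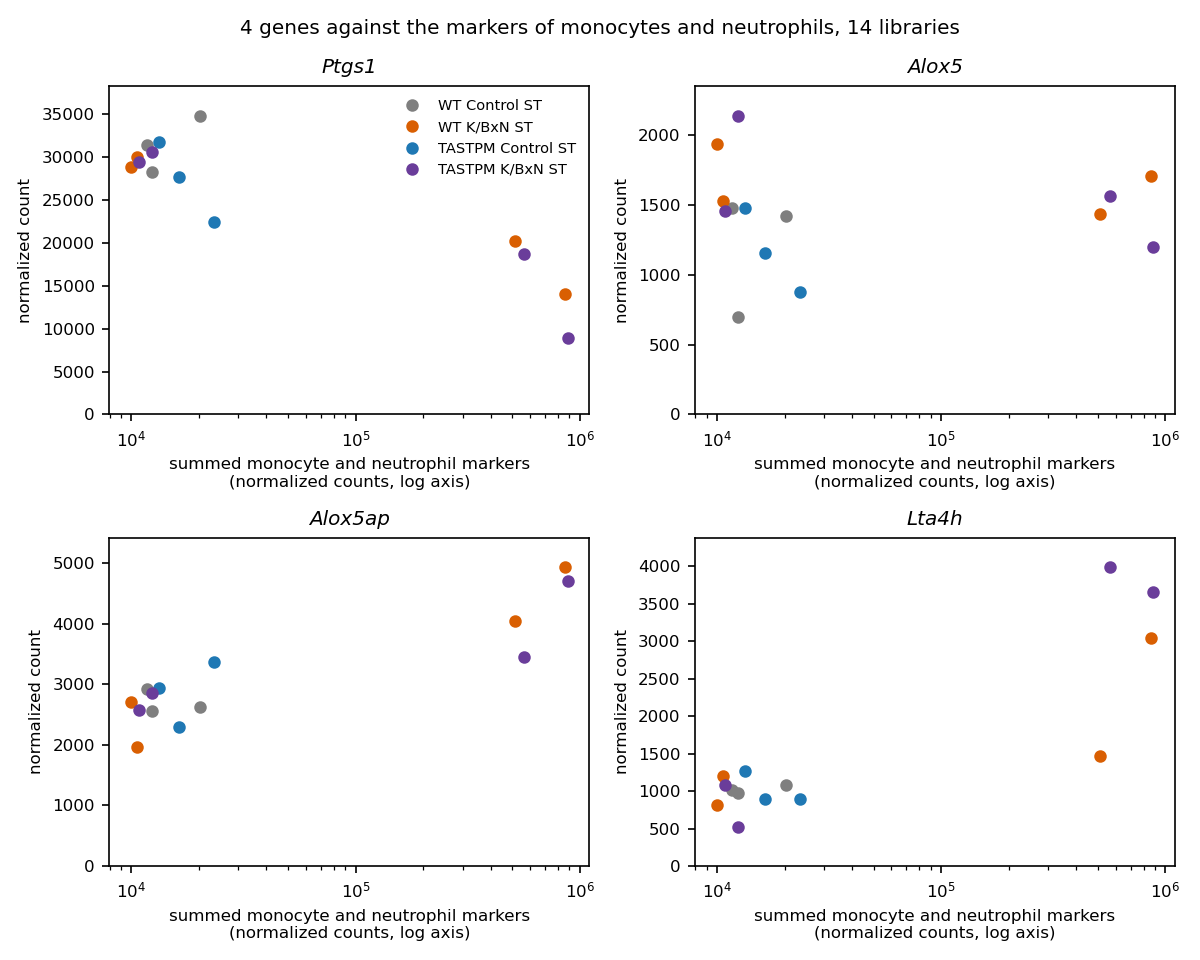
Normalized counts of Ptgs1, Alox5, Alox5ap and Lta4h against the summed normalized counts of monocyte and neutrophil markers (log axis), with 1 point per library coloured by group. The 4 K/BxN ST libraries at 512761 to 882875 lie apart from the 10 libraries at 9980 to 23370.

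For each tested member, the 3 genes with the highest Pearson correlation of log2 normalized counts over the 14 libraries were listed, as a description without a test, because the libraries fall into the 2 sets above. Beside the value over 14 libraries, the one over the 10 libraries low in Ly6c2 is given. Ptgs1 was most like Golm1 (0.985, 0.809 over the 10), Itm2c (0.983, 0.821) and Ctsf (0.981, 0.876). For Hpgds these were Rgl1 (0.949, 0.767), Pros1 (0.938, 0.791) and St3gal5 (0.921, 0.548), and for Tbxas1 they were Pmepa1 (0.963, 0.768), St3gal6 (0.945, 0.496) and Nek6 (0.944, 0.710). Pla2g4a was most like Gm44967 (0.872, 0.768), Frmd4b (0.868, 0.811) and Fer (0.852, 0.691).

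Ltc4s followed the 3 chains of complement C1q, with C1qa at 0.961 (0.726 over the 10 libraries), C1qc at 0.956 (0.705) and C1qb at 0.949 (0.691). Alox5ap was most like Prr13 (0.958, 0.861), Emp3 (0.955, 0.818) and the pseudogene Gpx4-ps2 (0.950, 0.880), and Lta4h most like Rnh1 (0.937, 0.643), Dctn3 (0.924, 0.756) and the pseudogene Rps6-ps4 (0.922, 0.654). Alox5 stood with Haghl (0.906, 0.941), Gm5421 (0.863, 0.884) and Acot13 (0.854, 0.923), and its values were no lower over the 10 libraries. Ptges3 was closest to its own pseudogene Ptges3-ps (0.940, 0.931), followed by the chaperonin gene Hspd1 (0.857, 0.906) and Ube2k (0.839, 0.881). Among the members themselves, Ptgs1 and Hpgds had a correlation of 0.891 over 14 libraries and 0.325 over the 10, and Hpgds and Ltc4s went from 0.728 to −0.76.

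Other genes of the pathway were taken from 4 lists of 77 symbols, of which 41 were among the deposited values and 33 passed the filter. Of these 33, 0 were called in any of the 6 comparisons by limma, while DESeq2 on the recovered reads called Pla2g7 in the averaged serum comparison (log2 fold change 4.22, DESeq2 adjusted p = 0.0124). In the averaged serum comparison 3 were higher and 2 lower at an unadjusted p below 0.05, where 9.25% of all tested genes passed. In WT 3 were higher and none lower (7.13% of all genes), and in TASTPM 1 was higher and 1 lower (4.22%). The median log2 fold change of the 33 was 0.13 in WT and −0.20 in TASTPM, against 0.06 and 0.01 over all tested genes.

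In arachidonate release, with 13 genes tested, Pla2g7, which encodes a secreted platelet-activating factor acetylhydrolase, had 1862 to 4389 normalized counts in the 4 libraries high in Ly6c2 and 1.87 to 333 in the 10 others. Its averaged log2 fold change was 3.02 (SE 1.25, limma adjusted p = 0.536), and in WT it was 4.63 (SE 1.76, limma adjusted p = 0.668). Pla2g6, a calcium-independent phospholipase A2, had 134.8, 83.3 and 79.0 normalized counts in TASTPM Control ST and 37.5, 0 and 0 in WT Control ST. The log2 fold change was 4.85 (SE 1.85, limma adjusted p = 0.807), a value that depends on the pseudocount because 2 libraries were at 0. Lpcat2 and Lpcat3, which put fatty acids back into lysophospholipids, were lower in the 4 libraries than in all 10 others, as were 2.51% of all tested genes.

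In prostanoid synthesis and breakdown, with 11 genes tested, Hpgd, the dehydrogenase that inactivates prostaglandins, had 5865 to 11128 normalized counts in the 4 libraries and 11145 to 16414 in the 10 others. Ptgr1, an enzyme in the breakdown of prostaglandins and leukotriene B4, had 374 to 616 in the 4 and 124 to 365 in the others. The averaged log2 fold change of Hpgd was −0.50 (SE 0.17, unadjusted p = 0.00849, limma adjusted p = 0.528), and that of Hpgd in TASTPM was −0.55 (limma adjusted p = 0.964). With 1 library left out, the TASTPM value of Hpgd ranged from −0.68 to −0.33. Ptges2, a membrane prostaglandin E synthase, had 242, 245 and 420 normalized counts in WT Control ST and 453, 635, 326 and 581 across WT K/BxN ST, with 481, 273 and 340 in TASTPM Control ST and 511, 463, 456 and 619 in TASTPM K/BxN ST. Its averaged log2 fold change of 0.62 (SE 0.23, limma adjusted p = 0.536) and its WT value of 0.73 (limma adjusted p = 0.684) did not pass. Akr1b3, an aldose reductase that can make prostaglandin F2 alpha, had 1503, 1130 and 1403 normalized counts in TASTPM Control ST and 2666, 1907, 1787 and 1609 in TASTPM K/BxN ST. Those 2 groups did not overlap, as for 2.67% of tested genes in that direction, and the log2 fold change was 0.55 (SE 0.25, limma adjusted p = 0.964).

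Among the 7 tested genes of the lipoxygenase, leukotriene and epoxide list, Cyp4f18, Cyp4f16 and Mgst3 were above all 10 other libraries in the 4 libraries high in Ly6c2, as were 7.63% of all tested genes. Cyp4f18, which in mouse neutrophils oxidizes leukotriene B4, had 2138 to 4428 normalized counts in the 4 and 50.1 to 666 in the others. Cyp4f16 had an averaged log2 fold change of 2.66 (SE 0.98, limma adjusted p = 0.536), 4.16 in WT (SE 1.39, limma adjusted p = 0.594) and 3.25 for TASTPM over WT in Control ST (SE 1.48, limma adjusted p = 0.883). In WT Control ST it had 128, 0 and 159 normalized counts, and without the library at 0 the 3 values were 1.47, 1.77 and 0.86. With the monocyte and neutrophil marker level as covariate the averaged value of Pla2g7 was 0.89 and that of Cyp4f16 was 1.76.

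Receptors were the thinnest list, with 8 of 18 symbols among the deposited values and 2 tested. Cysltr1, the receptor for cysteinyl leukotrienes, had 4028, 5035 and 4557 normalized counts in WT Control ST, 2774, 2872, 3863 and 3821 across WT K/BxN ST, 4481, 3916 and 2528 across TASTPM Control ST, and 2105, 2603, 4006 and 2646 in TASTPM K/BxN ST. In WT the K/BxN ST libraries were all below the Control ST libraries, as for 3.71% of tested genes. The averaged log2 fold change was −0.41 (SE 0.17, unadjusted p = 0.0335, limma adjusted p = 0.536). The 4 libraries high in Ly6c2 held 2105 to 2872 normalized counts of Cysltr1, and without them the averaged value was −0.18 (unadjusted p = 0.352) and the WT value −0.23 in place of −0.46. Of the 6 receptors that failed the filter, named after their values were seen, 4 were highest in the 4 libraries high in Ly6c2 or nearly so. Ltb4r1, the receptor for leukotriene B4, had 741 to 1788 normalized counts in the 4 libraries high in Ly6c2 and at most 2.18 in the 10 others, including 1.17 and 1.13 in TASTPM K/BxN ST libraries 3 and 4. Ptgir, the prostacyclin receptor, had 82.8 to 444 in the 4 and at most 0.937 elsewhere. Fpr2, a formyl peptide and lipoxin receptor, had 38.1 to 454 in the 4 and at most 1.17 elsewhere. Ptger2, a prostaglandin E2 receptor, had 68.2 to 263 in the 4 and 0 in 9 of the 10 others, with 73.1 in TASTPM Control ST library 1. The other two, also prostaglandin E2 receptors, did not follow this pattern. Ptger1 had 1.90 to 10.4 normalized counts in the 4 and 0 to 26.6 in the others, with the highest value in TASTPM Control ST. Ptger3 had 0 to 41.6 in the 4 and 0 to 113 in the others, with the highest value in WT K/BxN ST.

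**Figure D5:**
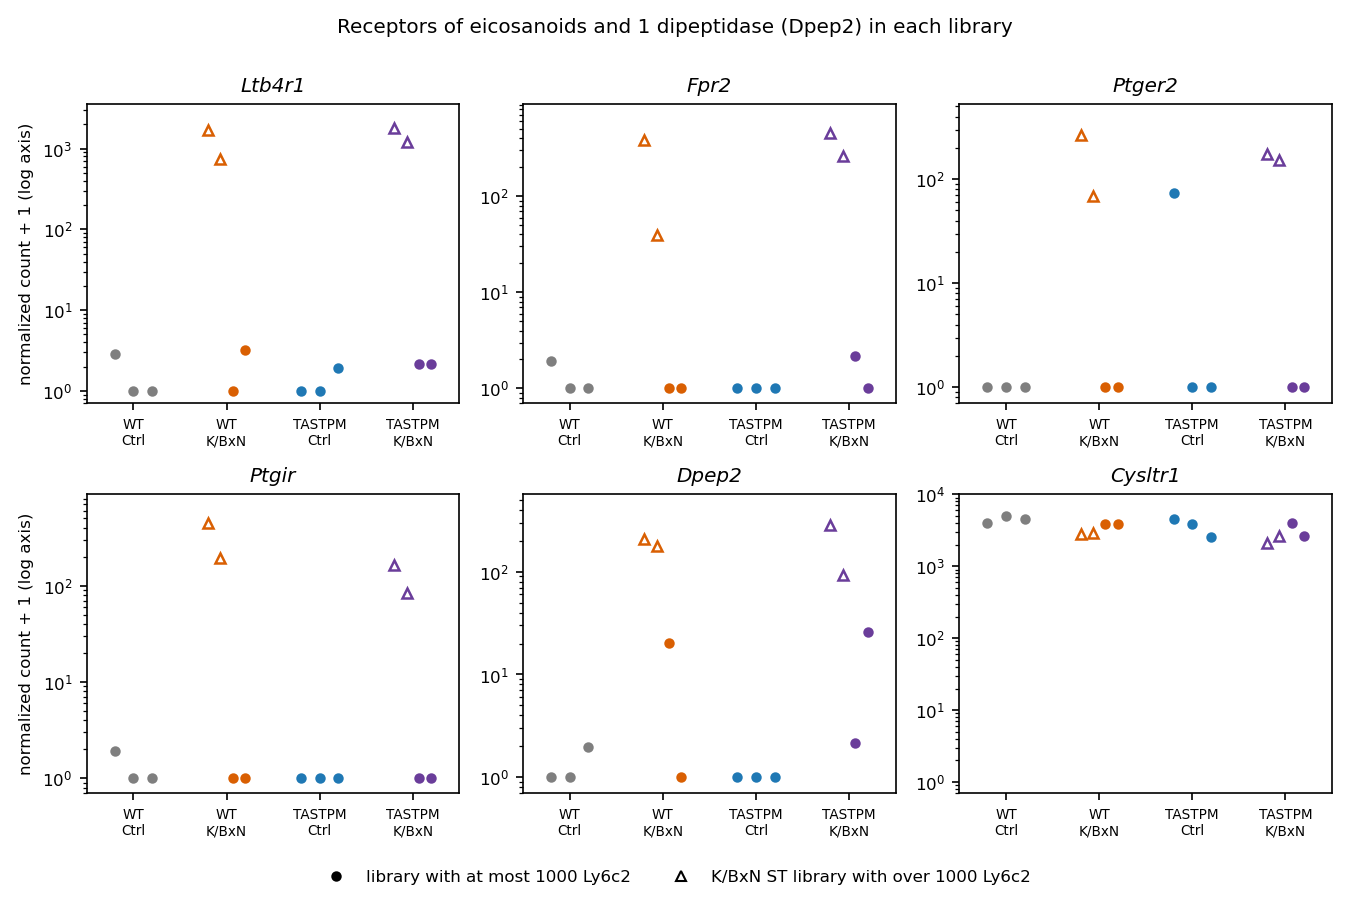
Normalized counts plus 1, on a log axis, of 5 receptors and the leukotriene dipeptidase gene Dpep2 in each library, with open triangles for the 4 K/BxN ST libraries high in Ly6c2. Ltb4r1 is at 741 to 1788 in the triangles and at most 2.18 elsewhere, while Cysltr1 is above 2000 in all 14 libraries. The receptors Ptger1, Ptger3 and Ptger4 are not drawn.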

How the data were processed

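The authors aligned paired-end reads, counted them per gene and deposited normalized counts, a signal that is the number of reads divided by 1 factor per library; the submitters' processing notes name HISAT2 2.1, featureCounts 1.5.2 and GRCm39. Of the deposited values 100% were whole reads after division by the value of 1 read (tolerance 0.01). The 7 rows that repeated an identifier with the same values were left out, and 33 genes had no symbol. Genes that reached 10 reads in 7 or more of 14 libraries were tested with limma 3.58.1 (R 4.3.3) on log2(normalized count + 1) over 4 groups, with a trend. A gene was called at a Benjamini-Hochberg adjusted p below 0.05 over 12645 genes and an absolute log2 fold change above 1. Fold changes are on that log2 scale. Two-sided exact permutation tests went through all assignments of libraries to groups in Python 3.11.15 with numpy 2.4.6. The tests of edgeR 4.0.16 and DESeq2 1.42.0 on the recovered reads were alternatives.

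Groups came from the labels. The numbers in the headers of 3 groups differ from the labelled replicates, so only the group was taken there, and no number is shared between groups. The members and lists were chosen with earlier results of these data known. All 10 members were described, and other pathway genes were named when their unadjusted p was below 0.05 in any of the 6 comparisons. Lpcat2, Lpcat3, Ptgr1, Cyp4f18 and Mgst3, which separate the libraries high in Ly6c2 from the others, and 6 receptors and Dpep2 that failed the filter were named after their values were seen. The tests were also tried on simulated data, where 200 of 12645 genes differed by 3 log2 units between the WT serum groups. There limma recovered 72% with 6 false calls, edgeR 70% and DESeq2 79.5% with 58 false calls. These shares hold for the simulated data alone. Recovery was not estimated for the deposited values, where 2 of the 4 K/BxN ST libraries of each genotype were high in Ly6c2.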

Additional observations from a re-analysis of the deposited data

How the results depend on the processing

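No member was called in any of the 6 comparisons under any alternative, the lowest adjusted p being 0.110 for Lta4h with library quality weights. Of 846 log2 fold changes of members in other settings 85 changed sign, and of 756 with 1 library left out 60 did. Leaving out the 4 libraries high in Ly6c2 and scaling to 10 microglial markers were chosen after seeing the data. Without the 4 libraries, the averaged serum values were 0.029 for Ptgs1, 0.14 for Hpgds, 0.11 for Tbxas1, −0.14 for Alox5ap, −0.24 for Lta4h and 0.077 for Pla2g4a, and the exact p of Alox5 was 0.05. With the monocyte and neutrophil marker level as covariate they were 0.088 for Hpgds, 0.060 for Tbxas1, −0.082 for Alox5ap, −0.076 for Lta4h and 0.044 for Pla2g4a. Scaled to microglial markers they were 0.10 for Ptgs1, 0.29 for Hpgds, 0.31 for Tbxas1, 0.076 for Ltc4s, 0.52 for Ptges3, 0.36 for Pla2g4a, 1.07 for Alox5, 0.82 for Alox5ap, 1.21 for Lta4h, 0.077 for Hpgd and 0.17 for Cysltr1, with 0.030 for Ltc4s in WT and 0.084 for Hpgd and 0.33 for Ptges3 in TASTPM, while the median of all genes moved to 0.61 (averaged), 0.58 (WT) and 0.63 (TASTPM). The cause of these changes was not tested.

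Over all genes, 1 was called in WT and 0 in the other comparisons. DESeq2 called 127 in WT, 16 in TASTPM, 179 averaged, 12 for the interaction and 41 between genotypes in Control ST. In WT, edgeR, a pseudocount of 10, a fit of the 2 groups alone and leaving out the 4 libraries each called 0, a pseudocount of 0.1 called 2, quality weights 8 and the marker covariate 3. In the averaged comparison a pseudocount of 0.1 and the marker covariate called 1 and quality weights 10. Between genotypes in Control ST a pseudocount of 0.1, a sex covariate, the marker covariate and leaving out the 4 libraries each called 1.

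With 1 library left out, calls ranged from 0 to 17 in WT (17 without WT Control ST library 3, 14 without library 2), 0 to 1 in TASTPM, 0 to 9 averaged, 0 to 3 for the interaction and 0 to 11 between genotypes in Control ST (11 without WT Control ST library 3). Averaged values ranged from −0.58 to −0.29 for Ptgs1, −0.38 to −0.13 for Hpgds, −0.35 to −0.13 for Tbxas1, −0.62 to −0.29 for Ltc4s, 0.31 to 0.58 for Alox5, 0.13 to 0.36 for Alox5ap, 0.42 to 0.91 for Lta4h, −0.11 to 0.0041 for Ptges3 (above 0 without TASTPM K/BxN ST library 4) and −0.35 to −0.10 for Pla2g4a. No paired analysis was possible because no replicate number is shared between groups. Depth limits what can be said of Ptgs2.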
